A study of Triticum aestivum with 12 samples.

Results

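A set of 80 probe sets of the Affymetrix Wheat Genome Array gave a higher signal in wheat roots from both sides of a split potassium (K) supply than in roots under either uniform supply. They were 80 of the 26541 probe sets with a mean log2 signal of at least 7, and of 61290 on the array, of which 61115 are not array controls. The members were selected on measured values: all 6 split arrays had to lie above all 6 uniform arrays, with a difference of the group means of at least 0.3 on the log2 scale, which is 1.23-fold. The selection rule left out 4 of the 84 probe sets that met these criteria, in part by gene ID. None of the 80 has a gene symbol in the platform annotation used here, whereas 793 of the 26541 probe sets have one. The exclusion by gene ID removed annotated probe sets, so this absence is partly set by the rule. The 80 members are named by their probe set IDs, with no gene position and with no function beyond a supplementary category for 3 of them.

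All samples were roots of the wheat genotype Tongzhou916, which the study chose as a K-efficient genotype, so that a single genotype stands for wheat here. Seedlings 3 weeks old, all raised in normal K solution at first, spent 5 days in vessels with a pair of separate root compartments. C. LK roots had 0.005 mmol/L K2SO4 in both compartments and C. NK roots had 1.0 mmol/L in both. In the split treatment one compartment held 0.005 mmol/L, from which the Sp. LK roots came, and the other held 1.0 mmol/L, from which the Sp. NK roots came. Each of the 4 groups had 3 arrays, labelled as biological replicates, and each replicate was a pool of plants. The sources used here do not say whether an Sp. LK and an Sp. NK array of the same number came from the same plants. All values are the deposited log2 signals, and signals printed without "log2" are their antilogs on the arrays' linear scale, in the order of replicates 1, 2 and 3.

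A root that meets an uneven nutrient supply can respond in at least a pair of ways known from plant physiology. A local response follows the supply at that part of the root, and a systemic response follows signals that travel through the shoot from other parts of the root system. A split-root vessel puts both supplies on the same plant, so that a transcript can be compared between roots that have the same local supply but belong to differently supplied plants. Potassium itself is mobile in the plant and moves in phloem and xylem between root and shoot. One member carries the category glutathione transferase, a family of enzymes that couple glutathione to reactive or foreign compounds and that is widely studied in plant stress responses.

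Taken over both K supplies, the quality measures of the split and uniform arrays overlapped. All 12 arrays were scaled to the same trimmed mean signal (500.1 on each), so every difference is relative to that common level. Signals under 32 made up 30.4% to 33.8% of an array. Over the 26541 probe sets with a mean log2 signal of at least 7, arrays correlated with each other at 0.929 to 0.981. The 3'-to-5' difference of the sucrose synthase control, a sign of RNA quality, was 3.71 to 4.30 log2 units on the split arrays and 3.86 to 4.51 on the uniform arrays. At normal K alone it separated them, at 3.89, 3.71 and 4.20 on the Sp. NK arrays and 4.51, 4.29 and 4.46 on the C. NK arrays. The same measure of the glucose-6-phosphate dehydrogenase control was 1.10 to 1.39 on the split arrays and 1.11 to 1.34 on the uniform arrays. Deoxymugineic acid synthase, an enzyme of iron-chelating phytosiderophore synthesis in grass roots, was among the bright signals with a highest mean log2 signal of 14.3 over its 3 probe sets. Of 36 probe sets for green tissue genes 6 reached a mean of 7, with a highest mean of 11.9. Of 15 for seed genes 0 did, with a highest mean of 6.94. No probe set of these 3 lists was a member or separated the split from the uniform arrays. Their summed signals overlapped between split and uniform arrays, at 24941 to 53532 against 33166 to 52324 for the root list, 6882 to 10007 against 7892 to 11194 for green tissue and 349 to 486 against 313 to 547 for seed. The root list came down to 1 gene, deoxymugineic acid synthase, so its sums are the signal of that gene alone. In such bulk samples, fewer cells of a type and less RNA per cell cannot be told apart.

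The selection itself sets how the members differ between split and uniform supply, so that difference is described here without a test. If every way of choosing 6 of the 12 arrays were equally likely to be on top, 28.7 of the 26541 probe sets (0.108%) would be expected to have all 6 split arrays above all 6 uniform arrays by chance, before any limit on the difference. The number found was 103 (0.388%), and 69 (0.26%) had all 6 split arrays at the bottom. With the limit of 0.3 there were 84 on the higher side (0.316%) and 38 on the lower side (0.143%). Probe sets are not independent of each other, so under that assumption the expected number describes a mean and not a spread. The assumption itself would fail if Sp. LK and Sp. NK arrays shared plants, which the sources used here do not say. A share of the members can therefore be of the kind that the order of arrays alone would give, and the values do not tell which.

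Differences of the split and uniform means ran from 0.32 to 1.91 log2 units with a median of 0.57, against a median of 0.01 over the 26541 probe sets. Of the 80 members, 37 exceeded 1.5-fold and 11 exceeded 2-fold. Their mean log2 signals ran from 7.0 to 12.8 with a median of 8.74, against 9.23 over the 26541, so members were not confined to dim or to bright probe sets. The step between the highest uniform array and the lowest split array was small for most: its median was 0.06 log2 units, 54 members had a step under 0.1 and 11 had one of 0.2 or more.

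**Figure D1:**
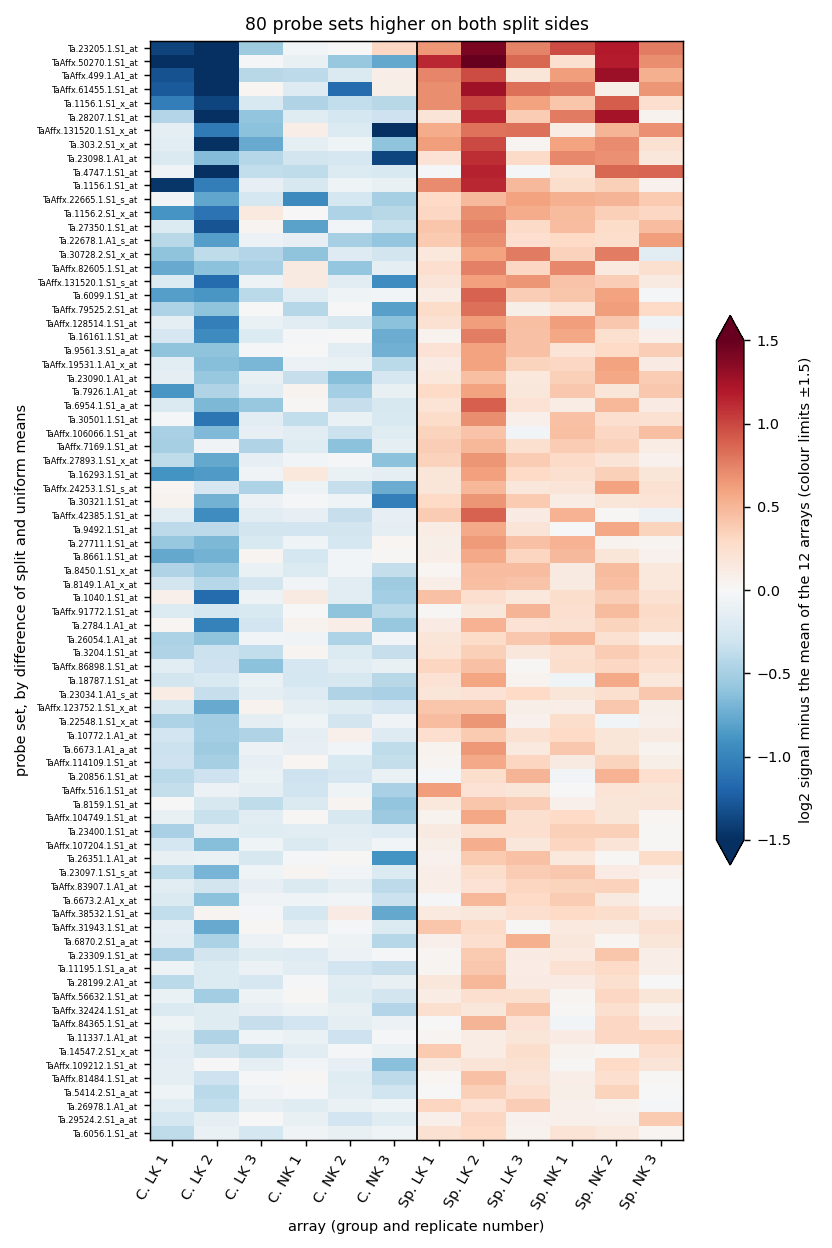
Log2 signal of each of the 80 members (rows, by falling difference) on each of the 12 arrays (columns), as the difference from the probe set's mean over the 12 arrays. Red is above and blue below that mean, colours are limited at 1.5 log2 units, and the black line separates the 6 uniform from the 6 split arrays. Most of the deepest blues lie on C. LK replicates 1 and 2 and the deepest reds on Sp. LK replicate 2.

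The member with the largest difference was Ta.23205.1.S1_at, 3.77-fold higher under split supply. Its signal was 922, 1562 and 983 on the Sp. LK arrays and 1154, 1336 and 995 on the Sp. NK arrays. In uniform roots it was 570, 589 and 728 under C. NK and 223, 34.3 and 406 under C. LK. The 6 split arrays thus lay closer together than the uniform arrays, while the C. LK arrays were the lowest and differed widely, with a mean of 221 ± 186 (SD, n = 3) against 629 ± 86.4 in C. NK. Without C. LK replicate 2 the difference was 2.44-fold, below the 3.04-fold of TaAffx.50270.1.S1_at without that array.

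TaAffx.50270.1.S1_at was 3.71-fold higher, with 315, 425 and 262 on the Sp. LK arrays and 169, 326 and 232 on the Sp. NK arrays. It gave 133, 96.6 and 84.4 under C. NK and 40.8, 27.6 and 141 under C. LK. Here C. LK replicate 3 was the highest of the uniform arrays, and the other C. LK arrays were the lowest.

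TaAffx.499.1.A1_at, 2.72-fold higher, read 230, 273 and 157 in Sp. LK and 214, 337 and 200 in Sp. NK. The uniform arrays read 105, 119 and 148 in C. NK and 56.0, 32.4 and 104 in C. LK. The Sp. LK and Sp. NK arrays overlapped, and all C. NK arrays lay above all C. LK arrays.

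TaAffx.61455.1.S1_at was 2.71-fold higher by its means, but its groups only just separated. The Sp. NK arrays gave 486, 301 and 447 and the C. NK arrays 247, 127 and 301, a step of 0.002 log2 units between Sp. NK replicate 2 and C. NK replicate 3. Sp. LK gave 460, 683 and 502, and C. LK gave 119, 80 and 289.

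Ta.1156.1.S1_x_at had the widest step of all 80 members, 0.49 log2 units, with a 2.45-fold difference. It gave 1173, 1450 and 1097 in Sp. LK and 963, 1356 and 864 in Sp. NK. The uniform values were 531, 561 and 542 in C. NK and 352, 280 and 617 in C. LK. The highest uniform array was C. LK replicate 3 at 617, and the lowest split array was Sp. NK replicate 3 at 864.

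Ta.28207.1.S1_at was 2.40-fold higher, at 870, 1669 and 989 in Sp. LK and 1299, 1801 and 786 in Sp. NK. It gave 669, 631 and 612 in C. NK and 560, 190 and 506 in C. LK. Its split arrays spread over more than a 2-fold range, whereas the C. NK arrays were nearly equal (638 ± 28.7, SD, n = 3).

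TaAffx.131520.1.S1_x_at, 2.25-fold higher, gave 361, 429 and 434 in Sp. LK and 263, 349 and 393 in Sp. NK. The uniform arrays gave 262, 211 and 81.3 in C. NK and 222, 117 and 160 in C. LK. The lowest Sp. NK array was only 0.01 log2 units above the highest C. NK array.

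Functional categories were found for 3 members, in a supplementary list of the study that names probe sets as raised in Sp. NK against C. NK or lowered in Sp. LK against C. LK. Those lists were drawn from these same arrays, so a listed member is not independent evidence of its direction. Ta.303.2.S1_x_at, listed under glutathione transferase and under cytoplasmic membrane-bounded vesicle, was 2.10-fold higher. It gave 668, 860 and 447 in Sp. LK and 656, 710 and 507 in Sp. NK. Uniform roots gave 391, 414 and 284 in C. NK and 388, 155 and 257 in C. LK. The 4 groups were therefore at 658 ± 207 in Sp. LK, 624 ± 105 in Sp. NK, 363 ± 69.6 in C. NK and 267 ± 117 in C. LK (SD, n = 3 each).

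Ta.22678.1.A1_s_at, listed under cellular respiration, the oxygen-using breakdown of sugars that yields ATP, was 1.79-fold higher with a step of 0.34 log2 units. Its signal was 752, 927 and 683 in Sp. LK and 703, 686 and 880 in Sp. NK. Under uniform supply it was 526, 404 and 383 in C. NK and 428, 323 and 540 in C. LK. In this member both split groups had nearly the same mean (787 ± 126 and 756 ± 107) and so had both uniform groups (438 ± 77.5 and 430 ± 108).

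TaAffx.24253.1.S1_s_at, listed under plastid, the organelle class that includes chloroplasts and the starch-storing bodies of roots, was 1.54-fold higher. It gave 475, 591 and 472 in Sp. LK and 477, 634 and 489 in Sp. NK, against 397, 329 and 250 in C. NK and 427, 353 and 303 in C. LK. Again the split groups overlapped each other, as did the uniform groups.

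Of the 37 probe sets listed as raised in Sp. NK, 34 had a mean log2 signal of at least 7, 3 were members and 4 were among those left out by the rule. All 37 had a higher split mean, with a median difference of 0.52. None of the 39 listed as lowered in Sp. LK was a member, none had a higher split mean, and their median difference was -0.48. Of the 4 probe sets listed under glutathione transferase, 1 was a member and the other 3 were among those left out. Both lists were chosen for direction on the same arrays, so these counts describe how the lists and the rule overlap and support no direction.

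**Figure D2:**
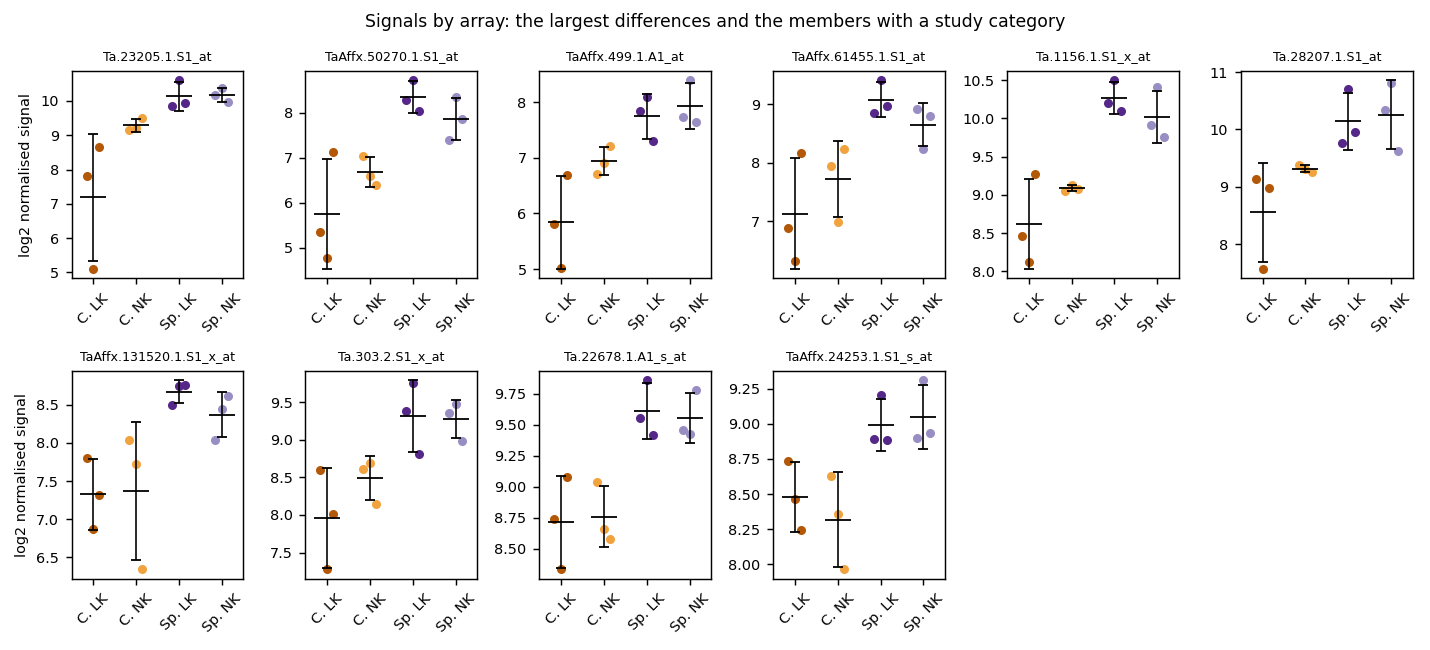
Log2 signal on each array (points) for the 8 members with the largest difference, among them Ta.303.2.S1_x_at, and for the other 2 members with a study category, with the group mean (long bar) and SD (short bars, n = 3). Every panel has its own vertical scale, and in every panel all 6 split points lie above all 6 uniform points, by 0.002 log2 units for TaAffx.61455.1.S1_at and by 0.49 for Ta.1156.1.S1_x_at.

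Among the 5 brightest members the difference ran from 0.32 to 0.80 log2 units, on either side of the median of all 80. TaAffx.81484.1.S1_at, the brightest, gave 7402, 9826 and 8272 in Sp. LK and 7728, 8618 and 7324 in Sp. NK. Its uniform values were 7307, 6353 and 5525 in C. NK and 6557, 5824 and 7144 in C. LK, a 1.27-fold difference. The lowest split and the highest uniform array were almost equal.

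Ta.6056.1.S1_at had the smallest difference of all members, 0.32 log2 units or 1.25-fold, with little scatter. It read 5777, 6057 and 5115 in Sp. LK and 5671, 5441 and 5049 in Sp. NK, against 4757, 4579 and 4700 in C. NK and 3793, 4605 and 4119 in C. LK. Ta.8450.1.S1_x_at was 1.49-fold higher, at 4444, 6043 and 5998 in Sp. LK and 4794, 6078 and 4876 in Sp. NK, against 3793, 4257 and 3405 in C. NK and 3183, 2947 and 4092 in C. LK. In both probe sets the split groups overlapped.

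TaAffx.27893.1.S1_x_at (1.56-fold) gave 5470, 6841 and 5631 in Sp. LK, 5288, 4940 and 4518 in Sp. NK, 4208, 4270 and 2830 in C. NK and 3313, 2540 and 3962 in C. LK. All of its Sp. LK arrays were above all of its Sp. NK arrays. TaAffx.131520.1.S1_s_at (1.74-fold) gave 5838, 7804 and 8111 in Sp. LK, 6887, 6617 and 5611 in Sp. NK, 5602, 4546 and 2681 in C. NK and 4434, 2293 and 4829 in C. LK. It separated by 0.002 log2 units, between Sp. NK replicate 3 and C. NK replicate 1.

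The limits of the rule passed close to other probe sets. Just inside the limit of 0.3 were Ta.6056.1.S1_at at 0.32 and Ta.29524.2.S1_a_at at 0.33, and just outside were Ta.3087.2.A1_at at 0.299 and Ta.11195.1.S1_x_at at 0.298. The mean signals nearest the limit of 7 were 7.0 for TaAffx.22665.1.S1_s_at and 7.06 for Ta.30728.2.S1_x_at inside it, and 6.93 for TaAffx.43424.1.A1_at and 6.89 for Ta.8056.1.A1_at outside it. The lowest split minus the highest uniform array was -0.0004 log2 units for Ta.26916.1.A1_at and -0.001 for TaAffx.59384.2.S1_s_at, which therefore missed separation, with differences of the means of 0.58 and 0.63.

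The 11 members with a step of at least 0.2 were looked at after their values were seen. Besides Ta.1156.1.S1_x_at they were Ta.23098.1.A1_at (0.39), Ta.23205.1.S1_at and Ta.22678.1.A1_s_at (0.34 each), TaAffx.22665.1.S1_s_at (0.33), TaAffx.50270.1.S1_at and Ta.23090.1.A1_at (0.27 each), Ta.28207.1.S1_at and Ta.27350.1.S1_at (0.23 each), Ta.9561.3.S1_a_at (0.22) and TaAffx.19531.1.A1_x_at (0.21). Their mean log2 signals ran from 7.0 to 10.1. Ta.23098.1.A1_at gave 369, 685 and 387 in Sp. LK and 524, 512 and 359 in Sp. NK, against 263, 267 and 122 in C. NK and 273, 203 and 237 in C. LK. Ta.23090.1.A1_at gave 189, 233 and 190 in Sp. LK, 218, 254 and 222 in Sp. NK, 134, 109 and 143 in C. NK and 153, 114 and 157 in C. LK.

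Probe set IDs show which members may read related transcripts. The 80 members fell into 76 clusters, a cluster being the part of the ID before its second point. Ta.1156 had 3 members and TaAffx.131520 and Ta.6673 had 2 each. The endings say how specific the probes are by design: 54 members end in a plain _at (67.5%, against 66.7% of the 26541), 13 in _x_at (16.25% against 15.7%), 7 in _a_at (8.75% against 10.7%) and 6 in _s_at (7.5% against 6.86%). Probes ending in _x_at or _s_at can also bind similar transcripts, and wheat is polyploid with near-identical copies of most genes, so the signal of those 19 members may come from several copies. The same can hold for members with the other endings. IDs that start with TaAffx made up 30 of the 80 (37.5%, against 29.1%).

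The other 2 members of Ta.1156 were Ta.1156.1.S1_at, 2.01-fold higher, and Ta.1156.2.S1_x_at, 1.87-fold higher. Ta.1156.1.S1_at gave 332, 445 and 283 in Sp. LK, 244, 259 and 212 in Sp. NK, 171, 194 and 188 in C. NK and 73.9, 98.7 and 186 in C. LK. All of its Sp. LK arrays lay above all Sp. NK arrays. Both members of Ta.6673 had similar differences, 0.50 for Ta.6673.1.A1_a_at and 0.44 for Ta.6673.2.A1_x_at.

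Probe sets that share a cluster with a member but were not selected give a second reading of related transcripts on the same RNA. There were 64 of them in 28 clusters, and 45 in 23 clusters had a mean log2 signal of at least 7. Of these 45, 40 had a higher split mean (51.6% of all 26541 did), 22 had a difference of at least 0.3 (7.57% did) and 1, Ta.11195.1.S1_x_at, separated fully. Their median difference was 0.30, from -0.19 to 1.70. They can share probes or transcripts with the members and so are not independent of the selection, and no test was made.

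Ta.23205.1.S1_x_at, next to the leading member, had a difference of 1.70. In the cluster of the glutathione transferase member, Ta.303.2.S1_at had 0.87, Ta.303.3.S1_x_at 0.85, Ta.303.3.S1_at 0.72, Ta.303.1.S1_x_at 0.29 and Ta.303.1.S1_at 0.23. In the cluster of the cellular respiration member, Ta.22678.2.S1_a_at had 0.53 and Ta.22678.1.A1_a_at had 0.47. Ta.4747.1.S1_x_at had 1.06 beside 1.02 for the member Ta.4747.1.S1_at, while the 3 bright neighbours of the member in cluster Ta.14547 had differences below 0.

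**Figure D3:**
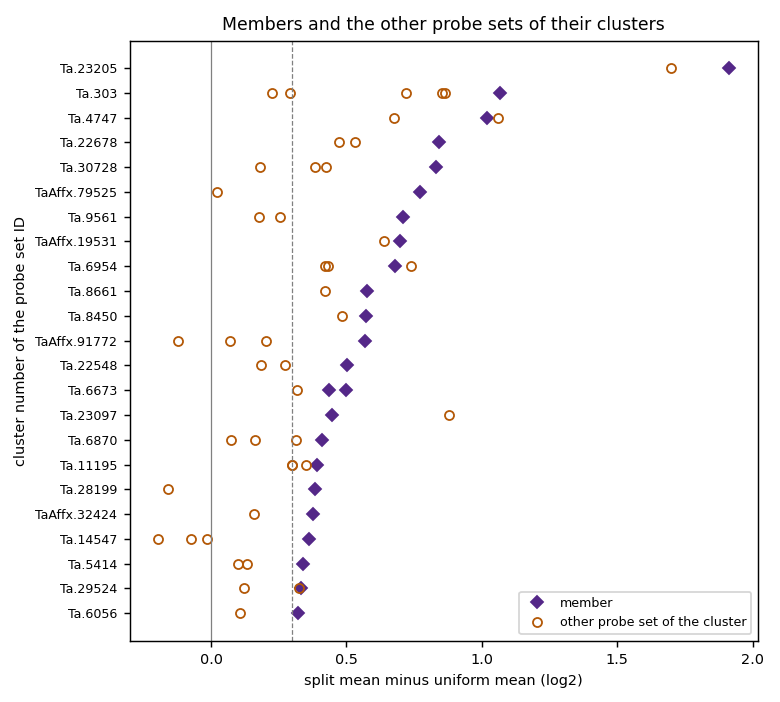
Difference of the split and uniform means in log2 units for the members (filled diamonds) and for the other probe sets with a mean log2 signal of at least 7 (open circles) in the 23 clusters that hold both. The solid line marks 0 and the dashed line the limit of 0.3, and 40 of the 45 open circles lie right of 0.

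Low-K supply was the same for Sp. LK and C. LK, and normal-K supply the same for Sp. NK and C. NK. The differences between these pairs follow from the rule and are described only. Sp. LK was above C. LK by a median of 0.66 log2 units (0.28 to 2.94), with 50 members past 1.5-fold and 13 past 2-fold. Sp. NK was above C. NK by a median of 0.46 (0.15 to 1.19), with 25 and 4. Shares of the 26541 probe sets past these folds are not given here, so the counts are not read as a trait of the members. The difference was larger on the low-K side for 65 of the 80 members, against 53.9% of the 26541 probe sets. That count was 53 without C. LK replicate 2 and 57 without Sp. LK replicate 2. The 3'-to-5' difference of sucrose synthase separated Sp. NK from C. NK but not Sp. LK from C. LK. Its part in the differences of the members was not tested.

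The largest low-K side differences were 2.94 for Ta.23205.1.S1_at, 2.60 for TaAffx.50270.1.S1_at, 1.95 for TaAffx.61455.1.S1_at and 1.90 for TaAffx.499.1.A1_at, where the normal-K side gave 0.88, 1.19, 0.93 and 0.98. The first of these leaned on C. LK replicate 2: without that array Ta.23205.1.S1_at had 1.90, below 2.11 for TaAffx.50270.1.S1_at, and without C. LK replicate 3 these were 3.68 and 3.29. The members with a study category were mixed in this respect. For Ta.303.2.S1_x_at the values were 1.35 and 0.79, for Ta.22678.1.A1_s_at 0.89 and 0.80, and for TaAffx.24253.1.S1_s_at 0.51 and 0.73.

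The sides of a split root can be compared with each other, and the uniform supplies with each other, by values that the rule did not use directly. The rule still bears on them, since it leaves out probe sets whose arrays within a side spread far enough to overlap the other supply, and since a single very low uniform array raises the difference it requires. Each comparison was fitted with limma over all 61115 probe sets, with Benjamini-Hochberg adjustment. With 3 arrays against 3, an exact permutation test for one probe set could not give a two-sided p below 0.1.

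Between Sp. LK and Sp. NK no member passed the study's thresholds of an unadjusted p under 0.05 and a fold above 1.5 (0 higher and 0 lower, where 0.377% and 0.283% of the 26541 probe sets did). None of the 80 had an unadjusted p under 0.05 in limma, and the methods' t-test also gave 0 at the study's thresholds. Member differences ran from -0.27 to 0.55 with a median of 0.07 and standard errors from 0.11 to 0.61. After adjustment none of the 61115 probe sets passed in limma, although 1907 had an unadjusted p under 0.05.

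The widest Sp. LK to Sp. NK difference was that of Ta.1156.1.S1_at, 0.55 ± 0.29 (SE, n = 3 against 3; limma adjusted p = 1.0). TaAffx.50270.1.S1_at had 0.48 ± 0.48 and TaAffx.61455.1.S1_at 0.42 ± 0.41, each smaller than or about as large as its error. At the other end, Ta.4747.1.S1_at had -0.27 ± 0.40. For the leading member, Ta.23205.1.S1_at, the sides differed by -0.04 ± 0.61.

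Between C. LK and C. NK, 4 members were lower and 0 higher at the study's thresholds, where 0.791% of the 26541 probe sets were lower and 0.923% higher. They were Ta.23205.1.S1_at (-2.10 ± 0.61, SE, in log2 units), TaAffx.499.1.A1_at (-1.10 ± 0.39), Ta.1156.1.S1_at (-0.74 ± 0.29) and Ta.6099.1.S1_at (-0.61 ± 0.20). None passed after adjustment (limma adjusted p = 0.94 for each), nor did any of the 61115 probe sets, of which 3134 had an unadjusted p under 0.05. The member differences ran from -2.10 to 0.25 with a median of -0.14. The 3'-to-5' difference of sucrose synthase also separated these groups, at 3.86, 3.92 and 4.06 log2 units on the C. LK arrays and 4.51, 4.29 and 4.46 on the C. NK arrays. That of glucose-6-phosphate dehydrogenase overlapped, at 1.20, 1.34 and 1.11 on the C. LK arrays and 1.25, 1.28 and 1.25 on the C. NK arrays. The part of RNA quality in the differences of the members was not tested.

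Ta.6099.1.S1_at shows how such a call is made up. It gave 1944, 1874 and 2604 in C. LK and 3060, 3292 and 3342 in C. NK, so all C. NK arrays were higher. Under split supply it gave 3711, 6358 and 4439 in Sp. LK and 4585, 5207 and 3390 in Sp. NK, with overlapping sides. For Ta.23205.1.S1_at and TaAffx.499.1.A1_at the size of the difference leaned on C. LK replicate 2 (34.3 and 32.4): without it the differences were -1.05 and -0.69, and Ta.23205.1.S1_at was the 1 member still lower at the study's thresholds. Without C. LK replicate 3, 11 were.

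Whether the low-K difference itself differed between split and uniform supply was tested as the difference of both differences. At the study's thresholds 4 members were higher under split supply and 0 lower, where 1.11% and 1.1% of the 26541 probe sets were. Ta.23205.1.S1_at had 2.06 ± 0.87, Ta.1156.1.S1_at 1.28 ± 0.42, Ta.6099.1.S1_at 0.73 ± 0.28 and Ta.16293.1.S1_at 0.69 ± 0.30 (SE, log2 units). After adjustment none passed (limma adjusted p = 0.98 for each), nor did any of the 61115 probe sets, of which 2389 had an unadjusted p under 0.05. Member values ran from -0.32 to 2.06 with a median of 0.22 and a median standard error of 0.29. For Ta.23205.1.S1_at the value was 1.02 without C. LK replicate 2. The uniform arrays of this test are those whose sucrose synthase values separated by K supply.

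Ta.16293.1.S1_at gave 229, 236 and 409 in C. LK, 476, 398 and 387 in C. NK, 483, 654 and 525 in Sp. LK and 502, 543 and 481 in Sp. NK. Its C. LK and C. NK arrays overlapped through C. LK replicate 3. Leaving out that array raised the count of members higher in the difference of both differences from 4 to 12, while leaving out Sp. LK replicate 2 or Sp. NK replicate 3 lowered it to 1.

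**Figure D4:**
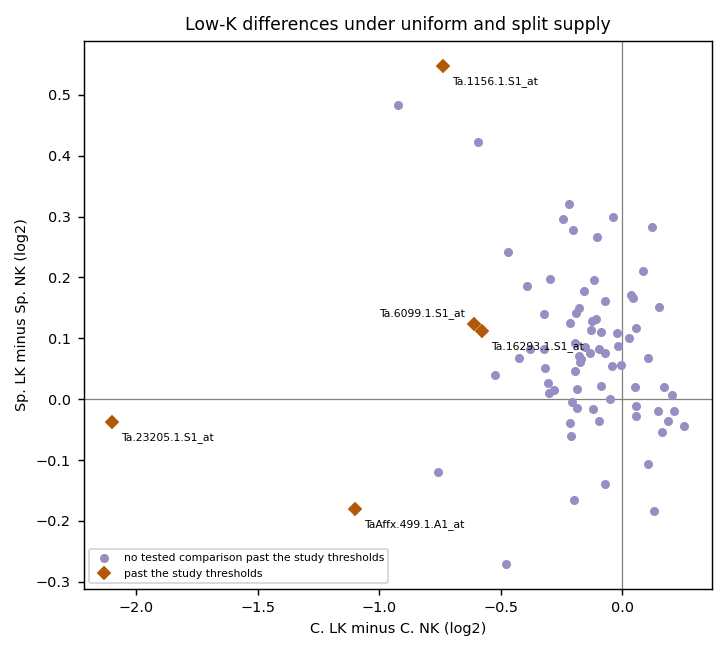
Difference of the group means between low and normal K in log2 units for each of the 80 members, under uniform supply (C. LK minus C. NK, horizontal) and between the sides of the split supply (Sp. LK minus Sp. NK, vertical). Diamonds mark the 5 members past the study's thresholds in a tested comparison, none of them after adjustment, and most points lie left of 0 and above 0.

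The order of the 4 group means was alike in most members. Sp. LK was above Sp. NK in 59 of 80 (73.75%, against 52.8% of the 26541 probe sets), C. LK was below C. NK in 60 (75% against 52.4%), and both held in 48 (60% against 30.7%). The remaining members fell into the other orders, 11 with low K higher under both supplies, 12 with normal K higher under both and 9 with Sp. NK and C. LK higher. For most of the 80 the mean level thus ran from C. LK over C. NK and Sp. NK to Sp. LK. The neighbouring groups seldom separated: all Sp. LK arrays lay above all Sp. NK arrays in 4 members (2.83% of the 26541 did), and all C. NK arrays lay above all C. LK arrays in 7 (5.47% did).

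These orders leaned on single arrays. Without Sp. LK replicate 2, Sp. LK was above Sp. NK in 34 of the 80 in place of 59, and without C. LK replicate 2, C. LK was below C. NK in 42 in place of 60. With every array centred on its median, Sp. LK was above Sp. NK in 42 of the 80, and C. LK remained below C. NK in 60. These recounts were chosen after the data were seen.

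Sp. LK replicate 2 was the highest of the split arrays in 45 of the 80 members (26.6% of the 26541 probe sets) and the lowest in 0, with a median of 0.51 log2 units above the members' mean over all arrays. C. LK replicate 2 was the lowest of the uniform arrays in 40 (24.7%), with a median of -0.59. Next came C. NK replicate 3, the lowest in 19 (19.0%), with a median of -0.31. The array that set the lower edge of the split side most often was Sp. NK replicate 3, the lowest split array in 27 members, and C. NK replicate 1 set the upper edge of the uniform side in 24. Shares of the 26541 probe sets were not computed for these edges, so the counts are not read as particular to the members. The 3'-to-5' difference of sucrose synthase was 3.81 on Sp. LK replicate 2 and 3.92 on C. LK replicate 2. Both values were inside the range of the other arrays, and the part of RNA quality in these array deviations was not tested. Over all probe sets, however, these arrays lay at opposite ends. The median log2 signal was 6.59 on Sp. LK replicate 2, the highest of all arrays, and 6.36 on C. LK replicate 2, the lowest. Signals under 32 made up 30.4% of the former, the smallest share, and 33.8% of the latter, the largest. With every array centred on its median, the rule kept 62 of the 80 members. The part of these shifts in the array deviations was not tested further.

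Within the groups, the median SD of a member was 0.233 log2 units, near the 0.227 of the 26541 probe sets. The members deviated from their group means together more than other probe sets did: the mean correlation between members' deviations over the 12 arrays was 0.286, against 0.0118 over the 26541. All these points share the same 12 arrays and the same selection, so the correlation is given as a description.

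**Figure D5:**
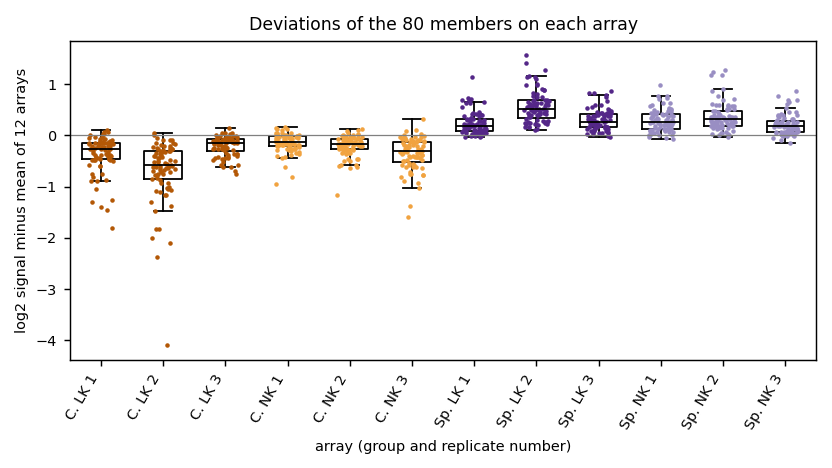
Log2 signal minus the mean over the 12 arrays for the 80 members on each array (points), with boxes from the lower to the upper quartile, a line at the median and whiskers to the farthest point within 1.5 box lengths. The box of Sp. LK replicate 2 is the highest and that of C. LK replicate 2 the lowest, with medians of 0.51 and -0.59.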

How the data were processed

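Total RNA of wheat roots was hybridised to the Affymetrix Wheat Genome Array, 12 arrays in 4 groups of 3. The deposited values are log2 signals that the authors made from the scans with the MAS 5.0 algorithm and GeneSpring, scaled to a common trimmed mean. Scanner intensities and detection calls were not used here, and the number of arrays limits the precision. From the deposited log2 table, 175 control probe sets (111 AFFX and 64 RPTR) were left out, and 61115 were analysed.

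Members were found by the rule given above. The members and lists were chosen with earlier results of these data known. Group means were fitted over all 12 arrays with limma 3.58.1 in R 4.3.3 (lmFit, eBayes with a variance trend), with Benjamini-Hochberg adjustment over all 61115 probe sets, and checked on simulated data. The study's thresholds were an unadjusted p under 0.05 and a fold above 1.5. Whether replicates shared a culture is not stated beyond "biological". The p-values set a difference against the spread between these pooled samples, and not against that between single plants.

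Named members were those with a gene symbol (none), those with a study category, the 8 with the largest difference, the 5 brightest, up to 5 past the study's thresholds in each tested comparison, the 2 probe sets on either side of each limit, and cluster neighbours. Others are said to have been named after their values were seen. Pathway lists could not be applied, since no member has a gene symbol and the gene table used here gives no products. Root, green tissue and seed lists were applied through gene symbols and their synonyms, and the root list came down to 3 probe sets of 1 gene. Alternatives were other limits, scalings and variance models, a replicate block, fewer arrays and the methods' t-test.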

Additional observations from a re-analysis of the deposited data

Results flagged for a closer look

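The low-K difference of 4 members differed between split and uniform supply by the test of that difference at the study's thresholds (unadjusted p under 0.05 and fold above 1.5), and none did after adjustment (limma adjusted p = 0.98 for each). Split minus uniform, in log2 units with standard errors, it was 2.06 ± 0.87 for Ta.23205.1.S1_at, 1.28 ± 0.42 for Ta.1156.1.S1_at, 0.73 ± 0.28 for Ta.6099.1.S1_at and 0.69 ± 0.30 for Ta.16293.1.S1_at. The unadjusted p-values from limma were 0.033, 0.0082, 0.021 and 0.036. No formal test for outlying arrays was run, but each array was left out in turn. Without C. LK replicate 2 the value of Ta.23205.1.S1_at was 1.02. Of 17 recomputed values each, the call was lost in 5 for Ta.23205.1.S1_at, 0 for Ta.1156.1.S1_at, 3 for Ta.6099.1.S1_at and 7 for Ta.16293.1.S1_at.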

How the results depend on the processing

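With a fold above 1.5 as the limit the rule found 37 probe sets, all of them among the 80, and with mean log2 signals of at least 6 or 8 it found 95 and 55. Centring each array on its median gave 81, of which 62 were among the 80, and quantile normalization gave 77 with 67 of the 80. Leaving out 1 array gave between 80 and 210 (fewer arrays separate more easily by construction), namely 201 and 136 when C. NK replicate 1 or 2 was omitted, 151 when Sp. LK replicate 1 was and 210 when Sp. NK replicate 3 was, and 77 to 80 of the members were kept. Leaving out 1 array in turn, Sp. LK was above Sp. NK in 34 to 67 members, C. LK below C. NK in 42 to 70, and the low-K side had the larger difference in 53 to 71.

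In C. LK vs. C. NK, 1 member was lower at the study's thresholds by the methods' t-test (4 by limma), and 1 to 11 with 1 array left out. In the difference of the low-K response, 1 was higher without the variance trend (4 with it), and 1 to 12 with 1 array left out. Calls in Sp. LK vs. Sp. NK stayed at 0 under all alternatives run, as did calls after adjustment among the members in all 3 comparisons. The 8 called differences of named members kept their direction, and 27 of their 144 recomputed values lost the call. Over all 21 named members the sign changed in 30 of 399 recomputed values for Sp. LK vs. Sp. NK (14 members, such as Ta.22678.1.A1_s_at at -0.07 and Ta.303.2.S1_x_at at -0.18 without Sp. LK replicate 2), in 11 of 399 for C. LK vs. C. NK (6 members) and in 8 of 357 for the difference of the low-K response (4 members), none of them a called difference. The cause of these changes was not tested.

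Over the 26541 probe sets, the correlation of same-numbered deviations was -0.21, 0.27 and 0.25 between Sp. LK and Sp. NK and 0.19, -0.03 and -0.23 between C. LK and C. NK. Arrays of different numbers were not compared in this way, so these values cannot decide whether same-numbered arrays share plants. In the fit that blocked on the replicate number (replicate block), the calls were 0 and 0, 0 and 4, and 4 and 0 (higher and lower) in the 3 comparisons, as without it, and 0 after adjustment.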
